A study of Mus musculus with 16 samples.

Results

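The genes Ucp1, Ucp2 and Ucp3 encode the uncoupling proteins, and they are 3 of the 11710 genes in the count table of this study. Ucp1 was chosen by its measured values, which were high in replicate 4 of both operated groups, so its levels are described here without a test. Ucp2 and Ucp3 were added as the other members of the family, and not for their values. All 3 were among the 11709 genes tested. Ucp1 held at least 10 counts in 6 of the 16 samples, 5 operated and 1 unoperated, whereas Ucp2 and Ucp3 reached that level in all 16.

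The study measured mRNA of mouse rotator cuff muscle in 16 samples, with 4 samples in each of 4 groups. The groups were unoperated C57BL/6J mice (BL6), C57BL/6J mice after tenectomy and denervation, unoperated MRL/MpJ mice (MRL), and MRL/MpJ mice after the same operation. Tenectomy removes tendon, and denervation cuts the nerve supply of the muscle. MRL/MpJ is an inbred strain studied for its tissue repair, and C57BL/6J is a common reference strain. The sample labels name the supraspinatus muscle and the series text the infraspinatus. The controls were labelled unoperated, so the operation itself was not matched by a sham procedure. The labels do not say whether samples of a group came from separate animals, and p-values measure the spread between these samples.

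Uncoupling proteins belong to the family of mitochondrial carriers in the inner membrane. UCP1 lets protons flow back into the matrix, so that brown and beige fat cells release the energy of respiration as heat. UCP2 is found in many tissues and is prominent in white blood cells, where it has been linked to control of reactive oxygen species. UCP3 is the form typical of skeletal muscle, and its gene responds to fatty acids through the PPAR nuclear receptors. Skeletal muscle fibres are not known as a main site of UCP1, whereas fat between or around muscle fibres can hold it.

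Ucp1 (ENSMUSG00000031710) is a protein-coding gene on the plus strand of chromosome 8, from 83290352 to 83298452 (GRCm38, GENCODE M21). Ucp3 (ENSMUSG00000032942) and Ucp2 (ENSMUSG00000033685) are neighbours on the plus strand of chromosome 7, from 100472990 to 100486432 and from 100493337 to 100502020. The gap between them is 6904 bases. Ucp2 overlaps Dnajb13 and Ucp3 overlaps the antisense gene Gm10603, both on the minus strand. Whether the counting used strand is not given in the sources used here, so reads of overlapping genes could not be told apart. The sequences just upstream of the 3 starts are shown because these promoters belong to genes whose mRNA behaved differently in the same samples. They are RefSeq sequences of GRCm38.p6, read 5′ to 3′ on the gene's strand and ending before the first annotated exon. Capitals mark matches to TATAAA or TATATA on the gene's strand, and to AGGTCA (core of many nuclear receptor sites), GGGCGG (GC box) or TGACG (part of a cAMP response element) on either strand. No 2 matches overlap.
Ucp1, chr8:83290098-83290347: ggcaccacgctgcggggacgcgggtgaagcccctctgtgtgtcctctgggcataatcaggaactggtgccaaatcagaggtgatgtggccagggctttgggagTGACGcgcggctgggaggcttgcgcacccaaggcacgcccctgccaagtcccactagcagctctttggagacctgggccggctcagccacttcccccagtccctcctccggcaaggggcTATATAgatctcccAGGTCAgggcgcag
Ucp2, chr7:100493108-100493336: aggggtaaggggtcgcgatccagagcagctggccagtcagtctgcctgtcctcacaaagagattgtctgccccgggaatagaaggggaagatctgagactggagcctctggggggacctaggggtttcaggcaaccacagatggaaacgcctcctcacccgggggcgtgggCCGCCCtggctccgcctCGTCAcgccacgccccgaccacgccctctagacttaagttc
Ucp3, chr7:100472741-100472989: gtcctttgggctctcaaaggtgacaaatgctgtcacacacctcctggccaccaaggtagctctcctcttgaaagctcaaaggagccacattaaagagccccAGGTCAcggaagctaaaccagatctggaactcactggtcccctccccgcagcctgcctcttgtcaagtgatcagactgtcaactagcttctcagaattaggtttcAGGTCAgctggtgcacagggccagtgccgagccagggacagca

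Only the Ucp1 sequence held a TATA match, which 11.5% of 32851 promoter windows of 250 bases also held. AGGTCA was matched 1 time at Ucp1, 2 times at Ucp3 and not at Ucp2, against 14% of windows with a match. Ucp2 held 1 GGGCGG match (32.7% of windows), and Ucp1 and Ucp2 each held 1 TGACG match (17.8%). The canonical E-box CACGTG was matched in none of the 3 and in 6.02% of windows. Ucp2 had 16 CG pairs in its window and Ucp1 had 12, whereas Ucp3 had 3, and the median over windows was 6. CG pairs were counted over windows of 250 bases. The Ucp2 sequence printed above has 229 of those bases, since it stops before the first exon, and it holds fewer CG pairs. These matches describe letters in short windows and do not show binding.

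Total counts ranged from 24323862 to 43552964 per sample. By these totals, without TMM scaling, 3 counts correspond to 0.0689 to 0.123 CPM (counts scaled to library size). Markers of muscle fibres summed to between 69082 and 229877 CPM in every sample, so that the samples carried the RNA of the labelled tissue. Replicate 4 of operated BL6 had the lowest of these sums. Replicate 4 of operated MRL, at 114922 CPM, lay within the range of its group and below the 156300 to 172103 CPM of unoperated MRL. Mitochondrial genes took 17.4% of counts in the former and 11.8% in the latter, each the lowest share of its group. The other operated samples held 20.1% to 24.9%, and unoperated MRL samples 11% to 11.6%. Markers of blood vessel lining summed to 394.7 CPM in replicate 4 of operated MRL, within the 295.7 to 417.5 CPM of unoperated MRL. The others of its group held 823.6 to 1031.6 CPM. On these 2 measures that sample was near unoperated MRL, and the cause was not tested. In bulk tissue, fewer cells of a type and less RNA per cell cannot be told apart.

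Per length of the principal transcript, Ucp3 was the most abundant of the 3 mRNAs in 14 samples. In unoperated samples Ucp3 made up 73.8% to 95.6% of the summed CPM per kilobase of the family, and Ucp1 at most 0.556%. Replicate 4 of each operated group was different. In operated BL6 it held 25.1 CPM per kilobase of Ucp1, 22.3 of Ucp2 and 18.6 of Ucp3. In operated MRL it held 50.9 of Ucp1, 37.3 of Ucp3 and 21.9 of Ucp2. Ucp1 thus made up 38.1% and 46.2% of the family in these 2 samples. The lengths matter for Ucp2, whose annotated exons together cover 6989 bases against 3988 in its principal transcript, and they do not affect comparisons of a gene between samples.

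**Figure D1:**
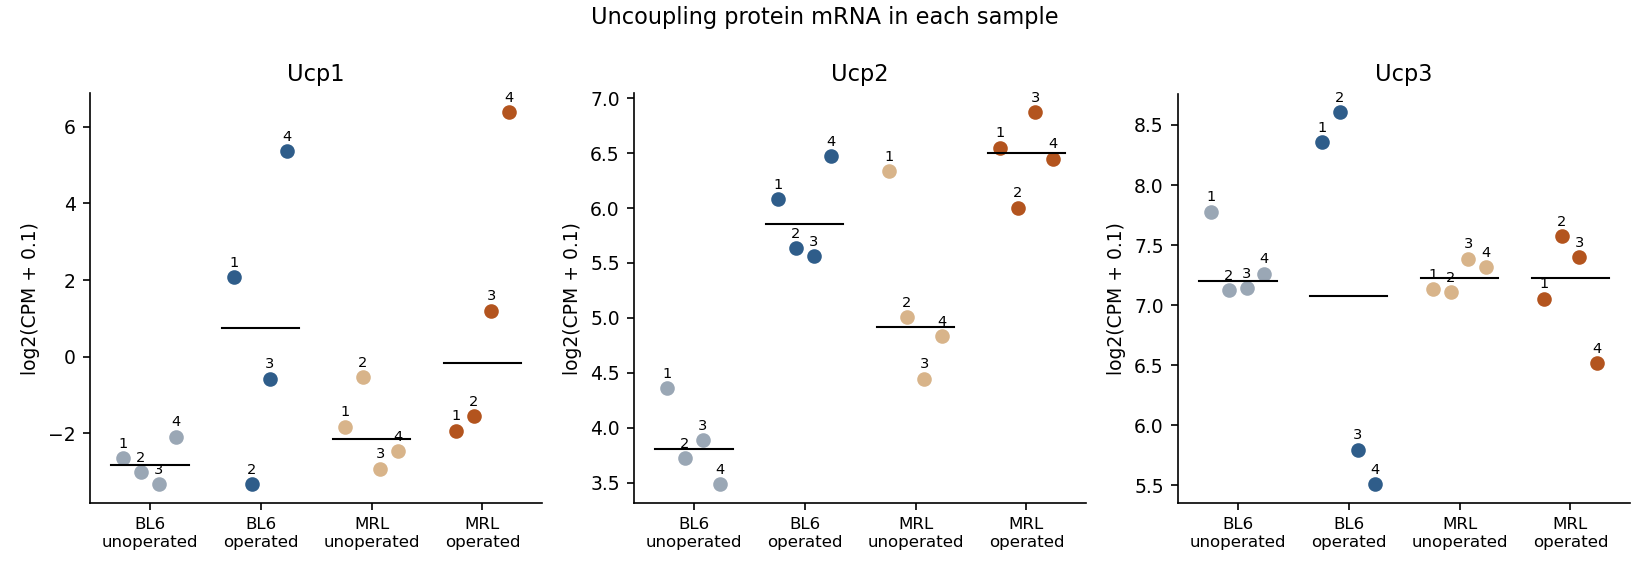
Level of each uncoupling protein mRNA in every sample, as log2(CPM + 0.1) on the vertical axis, with points numbered by replicate and a bar at the group median. Ucp1 stands at 41.1 and 83.2 CPM in replicate 4 of the operated groups. Ucp2 is higher in operated samples of each strain, except that unoperated MRL replicate 1, at 80.7 CPM, lies within the operated MRL range. Ucp3 splits in operated BL6 into replicates 1 and 2 above and replicates 3 and 4 below the unoperated BL6 samples.

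Ucp1 was near the limit of detection in unoperated muscle. Unoperated BL6 held 2, 1, 0 and 5 counts in replicates 1 to 4, which is at most 0.135 CPM. The 0 counts allow up to 0.0696 CPM in unoperated replicate 3, and the 0 counts of operated replicate 2 up to 0.0965 CPM. These 2 limits use total counts without TMM scaling. On the TMM scale of the other CPM values they would be higher, since the TMM factors of these samples were 0.8778 and 0.8302. Unoperated MRL held 6, 23, 1 and 3 counts, with the highest level, 0.588 CPM, in replicate 2. Operated BL6 held 4.12, 0, 0.573 and 41.1 CPM in replicates 1 to 4, and operated MRL held 0.162, 0.243, 2.20 and 83.2 CPM. The operated and unoperated ranges therefore overlapped in both strains, and most of the Ucp1 RNA was in 2 samples. In those samples Ucp1 was the gene of rank 2932 and rank 1472 by CPM, whereas in unoperated samples its rank was 11613 or below. Without replicate 4 the operated means were 1.56 and 0.869 CPM, against 11.5 ± 19.9 and 21.5 ± 41.2 CPM with it (SD, n = 4). The within-group SD of log2 CPM of Ucp1 was the largest of all genes tested in operated BL6 (3.99) and the second largest in operated MRL (3.93), where the medians over genes were 0.261 and 0.237. This spread restates how Ucp1 was chosen and is a description.

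Genes of brown and beige fat were examined beside Ucp1, and 10 of 20 listed markers were analysed here. Those not analysed here include Elovl3, Zic1 and Lhx8, and they were not among the 11710 genes of the count table. Cidea, a lipid droplet protein of brown fat that white fat cells can also carry, held 42.0 and 40.2 CPM in the operated replicates 4. Its other operated values were 3.18 to 6.82 CPM in BL6 and 1.80 to 4.69 CPM in MRL, and its unoperated values 0.948 to 1.47 CPM. Every operated sample thus lay above every unoperated sample. Within a strain, operated and unoperated groups did not overlap for 56.8% of all genes in BL6 and 33.7% in MRL. Slc36a2, an amino acid transporter, held 37.1 and 22.1 CPM in the operated replicates 4, 2.09 to 11.9 CPM in the other operated samples and 1.12 to 2.75 CPM in unoperated samples. Adrb3, the beta-3 adrenergic receptor of fat cells, held 17.2 and 21.5 CPM there, against 1.12 to 9.23 CPM in the other operated samples and at most 1.11 CPM in unoperated samples. Kcnk3, a potassium channel, followed the same order with 11.9 and 7.74 CPM against 1.28 to 4.01 and at most 0.785 CPM. These 4 mRNAs were thus highest in the operated replicates 4 of both strains. The other markers did not all follow this order. Dio2 was highest of both operated groups in replicate 4, in MRL only just (24.5 against 24.3 CPM in replicate 3). Ebf2 was highest there in BL6 only, and Acot11 in MRL only. Prdm16 and Tbx1 were highest there in neither strain. Prdm16 was lowest of operated MRL in replicate 4 (2.03 against 2.81 to 3.98 CPM), and Tbx1 lowest of operated BL6 (22.3 against 28.5 to 36.6 CPM).

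Surgery raised 6 of the 10 brown fat markers in BL6 and 5 in MRL, and lowered 2 in each strain, with calls made where the Benjamini-Hochberg adjusted p of edgeR's quasi-likelihood test was below 0.05. Of all genes tested, 35.1% were called higher and 32.8% lower in BL6, and 22.3% and 22.7% in MRL. The list median was 1.55 log2 units in BL6 and 1.19 in MRL, against 0.04 and 0.01 over all genes. Cidea rose by 3.44 in BL6 (adjusted p = 0.00501) and 3.26 in MRL (adjusted p = 0.0131) in the edgeR fit. Kcnk3 rose by 3.66 and 2.73, Adrb3 by 3.52 and 3.82, and Slc36a2 by 3.12 and 2.32. Dio2, which activates thyroid hormone in brown fat, rose by 2.37 and 2.02. Prdm16, a transcription regulator of brown fat identity, rose by 0.73 in BL6, and its value in MRL was 0.36 (adjusted p = 0.195 in the edgeR fit). Ebf2, a regulator of brown precursors, had 0.19 and 0.34 and was called in neither strain. Tbx1 and Acot11 fell in both strains, Acot11 by 0.97 and 0.83.

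With replicate 4 of both operated groups left out, 6 members were called higher in BL6, as before, and 6 in MRL in place of 5, where Prdm16 was then at 0.52 (edgeR adjusted p = 0.0452). Cidea was then at 1.99 in BL6 and 1.25 in MRL, with adjusted p of 9.74e-05 and 0.00442 in the edgeR fit. Kcnk3 was at 2.54 and 2.06. The values of Adrb3 and Slc36a2 in BL6 were then 2.30 and 1.66. Ucp1, which was not tested, had operated means without replicate 4 of 1.56 CPM in BL6 and 0.869 CPM in MRL. The means over all unoperated samples were 0.0548 and 0.221 CPM. Each of these operated means rested mostly on 1 sample, replicate 1 of BL6 (4.12 CPM) and replicate 3 of MRL (2.20 CPM). Operated BL6 replicate 2 held 0 CPM, and operated MRL replicates 1 and 2 (0.162 and 0.243 CPM) lay within the unoperated MRL range. When only replicate 4 of operated MRL was left out, Cidea in MRL was also at 1.25 but its adjusted p was 0.141, and Slc36a2 lost its call at 0.0749, in the edgeR fit. Slc36a2 in MRL also lost it without unoperated replicate 2 (0.0569) or replicate 3 (0.0564). With limma voom, Cidea and Slc36a2 in MRL (0.151 and 0.0947) and Adrb3 in BL6 (0.0517) had adjusted p above the threshold. Summed over the 10 markers, the level was 212.8 and 188.0 CPM in the operated replicates 4, 82.0 to 111.0 CPM in the other operated samples and 84.9 to 105.4 CPM in unoperated samples. No analysed marker was at 0 in any sample.

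Ucp1 was set against genes of fat cells in general, because fat cells of any kind would carry those. Plin1, the coat protein of fat cell lipid droplets, held 6.98, 2.79, 9.41 and 45.9 CPM in operated BL6 and 4.06, 5.48, 15.1 and 50.4 CPM in operated MRL. Unoperated samples held 1.17 to 4.47 CPM. The count ratio of Ucp1 to Plin1 was 0.896 and 1.65 in the operated replicates 4. In the other operated samples it was 0 to 0.59, and in unoperated samples 0 to 0.24. The ratio of Cidea to Plin1 was 0.915 in replicate 4 of operated BL6, within the 0.643 to 1.14 of the others of its group. In replicate 4 of operated MRL it was 0.796, above the 0.311 to 0.67 of the others of its group. Since Ucp1 was chosen by its values in the operated replicates 4, its higher ratio there is a description. Adipoq, the fat cell hormone adiponectin, held 110.0 and 85.1 CPM there and 8.13 to 39.0 CPM in the other operated samples.

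Of 18 general fat cell markers 17 were analysed, and 12 rose and 1 fell in BL6, while 11 rose and 1 fell in MRL. Over all genes, 35.1% were called higher and 32.8% lower in BL6, and 22.3% and 22.7% in MRL. The list median was 2.01 and 1.59. Adipoq rose by 3.17 and 2.59 on the log2 scale, Plin1 by 3.25 and 2.75, Cidec by 2.76 and 2.32, Cfd by 3.37 and 2.91, and Retn by 2.92 and 3.13. Without operated replicate 4, BL6 values were 1.97 for Adipoq, 1.89 for Plin1 and 1.81 for Cidec. Plin1 in MRL lost its call without operated replicate 4 (1.56, edgeR adjusted p = 0.0930) or unoperated replicate 3 (edgeR adjusted p = 0.0517), and with limma voom Plin1 had adjusted p of 0.0586 in BL6 and 0.0882 in MRL. Gpd1, which makes glycerol phosphate and is also a muscle gene, fell by 1.45 and 1.17. Most of the 17 markers, among them Plin1, Adipoq, Cidec and Cfd, were highest in replicate 4 of both operated groups. Cidec held 54.3 and 47.9 CPM there, and Cfd 564.9 and 281.3 CPM. This order was thus not particular to the brown fat markers. Not every fat cell gene was highest where Ucp1 was. Fabp4, a fatty acid binding protein that blood vessels also express, rose by 2.47 and 2.26, yet in operated MRL its lowest value, 902.6 CPM, was in replicate 4. Pparg, the master regulator of fat cells, held 14 CPM in that sample and 12.5 to 21.3 CPM in the others of its group.

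**Figure D2:**
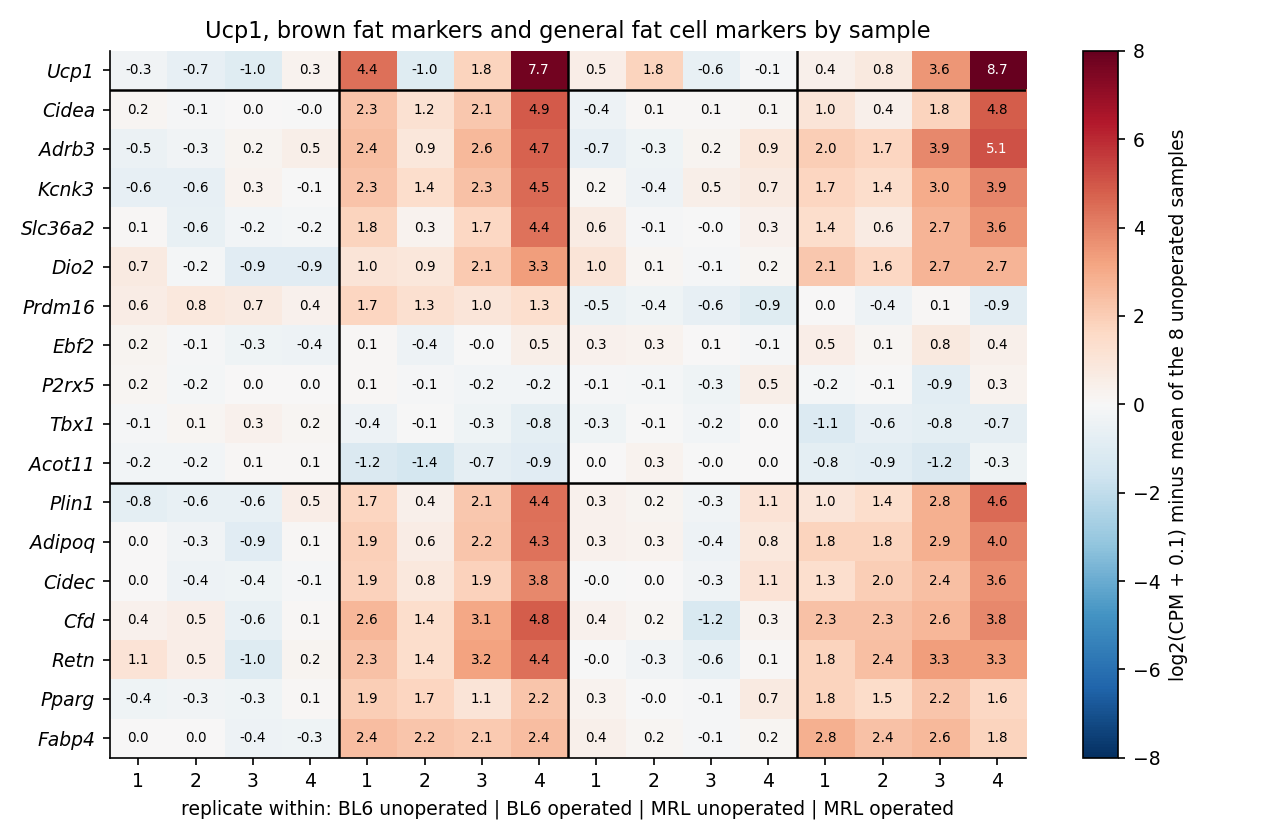
Level of Ucp1, 10 brown fat markers and 7 general fat cell markers in each of the 16 samples, as log2(CPM + 0.1) minus the mean of the 8 unoperated samples (colour and printed value). Ucp1, Cidea, Adrb3, Kcnk3, Slc36a2, Plin1, Adipoq, Cidec and Cfd are darkest in replicate 4 of both operated groups. Fabp4 and Pparg are not highest in replicate 4 of operated MRL, and Tbx1 and Acot11 are lower after surgery.

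Over the 16 samples, the genes whose log2 CPM was most like that of Ucp1 among 11132 others were Plin1 (Pearson r = 0.920, Spearman rho = 0.805), Slc36a2 (0.917 and 0.799), Agpat2 (0.913 and 0.839), Cidea (0.908 and 0.628) and Slc24a3 (0.908 and 0.650). These are the highest of many correlations and are given as a description with no p. How far they rest on the 2 samples with high Ucp1 was not tested. Agpat2, an enzyme of triglyceride synthesis, held 54.3 and 53.9 CPM in those samples and 9.61 to 28.8 CPM in the other operated samples. A second description ranked genes by how far the operated replicate 4 exceeded the mean of the other operated samples, taking the smaller of the 2 strains' differences. The difference of Ucp1, 6.24 log2 units, restates how it was chosen. The next genes were Cidea (3.03), Plin1 (2.85), Adrb3 (2.58), Pck1 (2.56) and Prkar2b (2.5). Pck1, the enzyme that feeds glycerol synthesis in fat cells, and Prkar2b, a regulatory subunit of protein kinase A, were named after their values were seen.

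Ucp2 rose with surgery in both strains. In unoperated BL6 it was 20.4, 13.1, 14.7 and 11.1 CPM in replicates 1 to 4, and in operated BL6 67.6, 49.5, 47.2 and 88.8 CPM. The groups did not overlap, as for 56.8% of all genes, and means were 14.8 ± 3.99 and 63.3 ± 19.3 CPM (SD, n = 4). The log2 fold change was 2.10 (SE 0.361, edgeR adjusted p = 0.000171), in a comparison where 67.9% of genes were called. Leaving out each sample in turn kept it between 1.89 and 2.29, and the edgeR adjusted p at or below 0.00102.

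In MRL, Ucp2 was 80.7, 32.0, 21.7 and 28.4 CPM in unoperated and 93.6, 64.1, 117.2 and 87.3 CPM in operated replicates 1 to 4. Replicate 1 of the unoperated group lay within the operated range, and the other unoperated samples lay below it. In this comparison the groups did not overlap for 33.7% of genes. Means were 40.7 ± 27.0 and 90.6 ± 21.8 CPM (SD, n = 4). The log2 fold change was 1.155 (SE 0.349, edgeR adjusted p = 0.0155), and 45% of genes were called. Without unoperated replicate 1 it was 1.73 (edgeR adjusted p = 0.00102). The call was lost without unoperated replicate 3 (0.947, adjusted p = 0.0520), without unoperated replicate 4 (1.015, adjusted p = 0.0526) and without operated replicate 3 (1.01, adjusted p = 0.0531) in the edgeR fit. The effect in MRL minus that in BL6 was -0.94 (SE 0.491, edgeR adjusted p = 0.352). That difference was called for 0.248% of genes, 0.154% with a higher and 0.0939% with a lower effect in MRL.

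Between the strains, Ucp2 was higher in unoperated MRL than in unoperated BL6, by 1.46 on the log2 scale (SE 0.355, edgeR adjusted p = 0.0139). In that comparison 10.4% of genes were called, 5.02% higher and 5.36% lower in MRL, and the groups did not overlap for 25.1%. The lowest unoperated MRL sample (21.7 CPM) lay just above the highest unoperated BL6 sample (20.4 CPM). The call was lost without replicate 1 of unoperated MRL, where the difference was 0.88 (adjusted p = 0.0513), and without replicate 4 of unoperated BL6, where it was 1.34 (adjusted p = 0.0538), in the edgeR fit. Among operated samples the difference was 0.52 (SE 0.345, edgeR adjusted p = 0.369), where 12.9% of genes were called, 7.6% higher and 5.27% lower in MRL, and 13.6% did not overlap. The 4 comparisons share samples. The authors' deposited table gives 1.79 and 1.61 for surgery in BL6 and MRL, and 1.0 and 0.829 for MRL against BL6 in unoperated and operated samples. All 4 have a false discovery rate of at most 0.0268 in the authors' deposited table, so the strain difference among operated samples is called there and not in the fit used here.

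White blood cells are a known site of Ucp2, and 19 of 22 listed markers of macrophages and other white blood cells were analysed here. Their summed level was 63.3 to 228.2 CPM in unoperated BL6, 162.2 to 1039.7 CPM in operated BL6, 129.3 to 729.8 CPM in unoperated MRL and 231.0 to 451.8 CPM in operated MRL. The highest sum of unoperated MRL was in replicate 1, the sample with the highest Ucp2 of its group, and the highest sum of operated BL6 was in replicate 4, likewise. Adgre1, which encodes the macrophage antigen F4/80, held 48.5 CPM in replicate 1 of unoperated MRL and 1.38 to 2.0 CPM in the other samples of that group. In operated BL6 it held 19.1 CPM in replicate 4 and 2.36 to 4.51 CPM in the others. In operated MRL, however, Ucp2 was highest in replicate 3 and the marker sum in replicate 4. No analysed marker was at 0 in any sample, and the part of these cells in the Ucp2 result was not tested. The listed markers not analysed were Cd3e, Cd79a and Ms4a1, the T and B cell markers of the list, so the sum does not include them.

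In BL6, 15 of the 19 white blood cell markers rose with surgery and none fell, with a list median of 2.18 log2 units. Over all genes, 35.1% were called higher and 32.8% lower there. Cd68, a lysosomal protein of macrophages, rose by 2.01, Csf1r, the receptor for the macrophage growth factor, by 1.87 and Lyz2 by 1.69. Without operated replicate 4 these were 1.17, 0.92 and 0.84, and Lyz2 lost its call there (edgeR adjusted p = 0.218) and on leaving out any of 3 unoperated samples. The values of Adgre1, Itgam and Ptprc were 2.18, 1.92 and 1.07 and passed no threshold (adjusted p = 0.0738, 0.0771 and 0.136 in the edgeR fit). In MRL, where 22.3% of all genes were called higher, the list median was 0.14. Only Mrc1, a receptor of tissue macrophages, was called there, with 1.18. That call was lost on leaving out any of 6 of the 8 samples (edgeR adjusted p = 0.0552 to 0.103) and with total-count scaling (0.0802). With replicate 4 of both operated groups left out, 7 markers were called in BL6, and without replicate 1 of unoperated MRL, 7 were called in MRL. Ucp2 kept its call in both of these settings, at 1.89 in BL6 (adjusted p = 0.000592) and at 1.73 in MRL (adjusted p = 0.00102), in the edgeR fit. Aif1, another macrophage gene, had the largest called rise of the list in BL6, 3.51. It was 2.56 without operated replicate 4 (edgeR adjusted p = 0.0899), and the call was also lost without unoperated replicate 3 or 4 and with limma voom (0.0584).

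**Figure D3:**
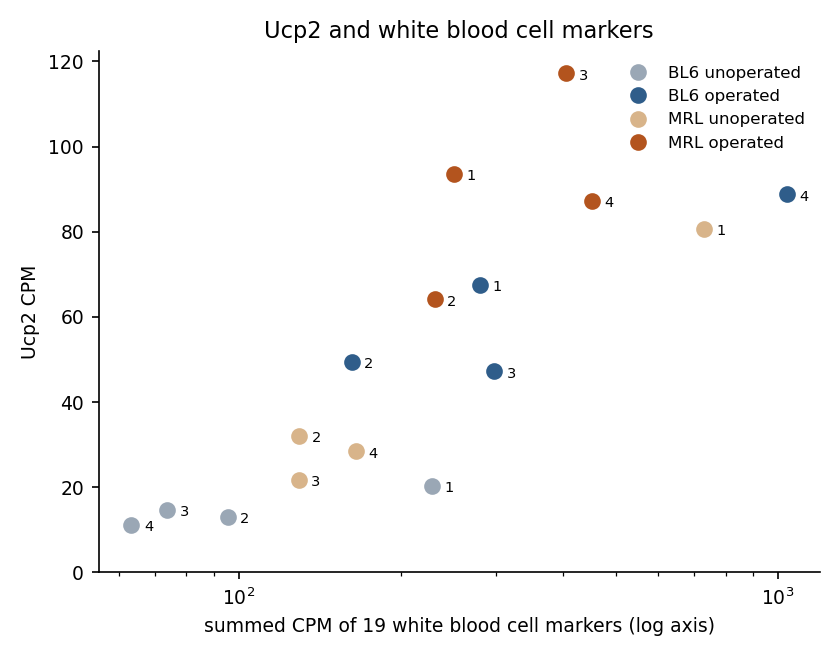
Ucp2 in CPM (vertical axis) against the summed CPM of 19 white blood cell markers (horizontal log axis) for the 16 samples, numbered by replicate and coloured by group. Replicate 1 of unoperated MRL, at 729.8 CPM of marker sum and 80.7 CPM of Ucp2, lies apart from the rest of its group, and operated MRL samples hold 64.1 to 117.2 CPM of Ucp2 at marker sums of 231.0 to 451.8 CPM.

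The genes most like Ucp2 over the 16 samples were Slc7a7 (Pearson r = 0.965, Spearman rho = 0.959), Pltp (0.963 and 0.921), Arpc5 (0.957 and 0.938), Arpc1b (0.953 and 0.921) and Clic1 (0.952 and 0.938), again as a description with no p. Slc7a7 is an amino acid transporter subunit, Pltp a phospholipid transfer protein, and Arpc5 and Arpc1b are subunits of the actin-nucleating Arp2/3 complex. Like Ucp2, all 5 were highest of unoperated MRL in replicate 1. Pltp held 65.6 CPM there against 20.2 to 22.1 CPM in the other samples of the group. All 5 were also highest of operated BL6 in replicate 4.

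Ucp3 did not pass the test for surgery in either strain, and it was uneven within operated BL6. Unoperated BL6 held 219.6, 139.3, 141.3 and 153.4 CPM in replicates 1 to 4, and operated BL6 held 327.3, 389.9, 55.5 and 45.5 CPM. All 4 operated samples thus lay outside the unoperated range, 2 above and 2 below it. The means were 163.4 ± 38.0 and 204.6 ± 179.8 CPM (SD, n = 4). The log2 fold change was 0.32 (SE 0.512, edgeR adjusted p = 0.586). The within-group SD of log2 CPM in operated BL6 was 1.64, larger than for 99.6% of genes tested.

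In MRL, Ucp3 was 140.1, 137.8, 167.4 and 159.2 CPM in unoperated and 132.9, 190.7, 169.0 and 91.4 CPM in operated replicates 1 to 4. The groups overlapped, and the sample with the lowest value was the operated replicate 4. The log2 fold change was -0.05 (SE 0.512, edgeR adjusted p = 0.943). The effect in MRL minus that in BL6 was -0.37 (edgeR adjusted p = 0.803). MRL against BL6 gave -0.11 among unoperated samples (edgeR adjusted p = 0.921) and -0.49 among operated samples (edgeR adjusted p = 0.589). The authors' deposited table also calls Ucp3 in none of its 4 comparisons, with a lowest false discovery rate of 0.459. With an SE of 0.512 log2 units, a change of moderate size would not have passed the test.

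Ucp3 was set beside genes of fatty acid use that PPAR factors act on in muscle. Pdk4, the kinase that shuts off pyruvate dehydrogenase when fat is burned, held 583.4, 930.0, 87.1 and 112.2 CPM in operated BL6 replicates 1 to 4. Unoperated BL6 held 544.7 to 1282 CPM. Ppargc1a, the coactivator PGC-1alpha of mitochondrial genes, held 45.4, 63.7, 17.5 and 9.21 CPM in operated and 48.5 to 56.0 CPM in unoperated BL6. In operated BL6 Ucp3, Pdk4 and Ppargc1a were therefore all lowest in replicates 3 and 4. The muscle fibre sum in those replicates was 106679 and 69082 CPM, against 130327 and 195216 CPM in replicates 1 and 2, and its part in the split was not tested. In operated MRL the genes parted, since replicate 4 had the lowest Ucp3 and the highest Pdk4 and Ppargc1a of the group, at 597.9 and 129.2 CPM. Surgery gave Pdk4 values of -0.82 and -0.43, with edgeR adjusted p = 0.208 and 0.544. Without replicate 2 of operated BL6, Pdk4 was called lower there, at -1.54 (adjusted p = 0.0219 in the edgeR fit).

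**Figure D4:**
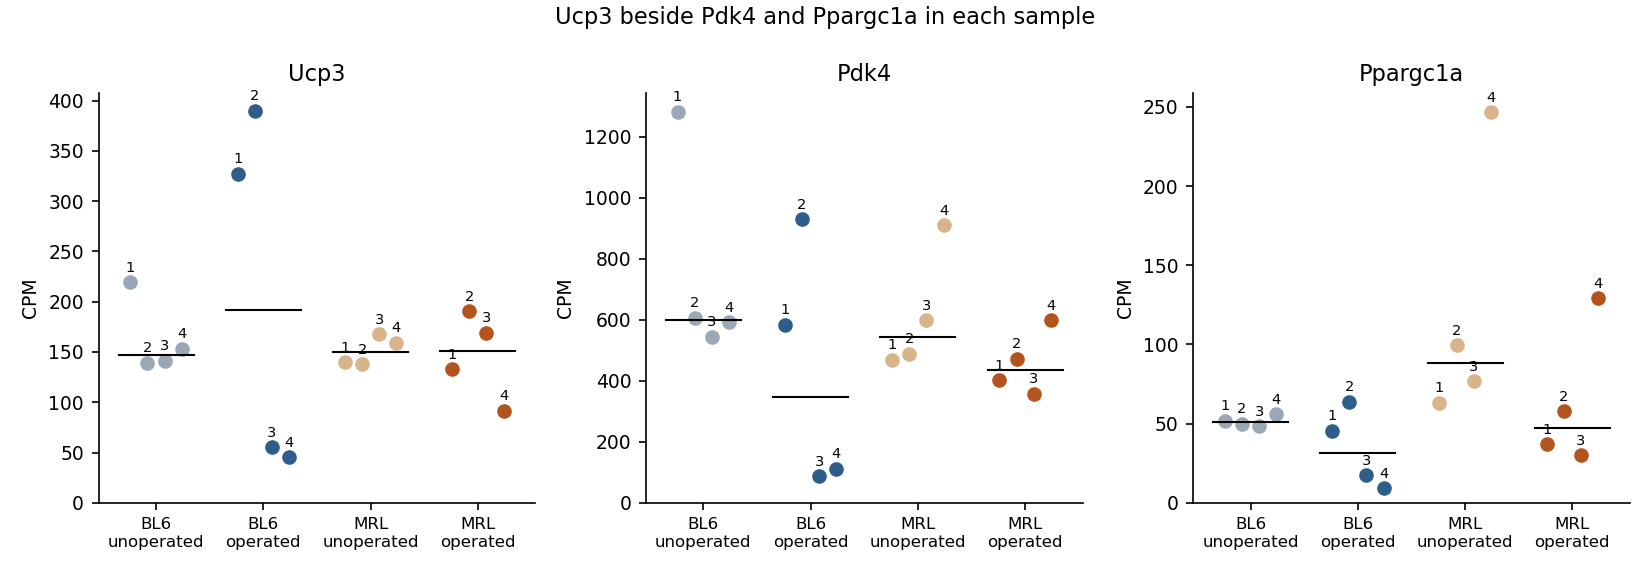
CPM of Ucp3, Pdk4 and Ppargc1a in every sample (linear axes from 0), numbered by replicate, with a bar at the group median. In operated BL6 replicates 3 and 4 are lowest for all 3 genes, and in operated MRL replicate 4 is lowest for Ucp3 and highest for Pdk4 and Ppargc1a.

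Of the 20 listed PPAR targets 19 were analysed. In BL6, 2 rose and 7 fell, with a list median of -0.29, beside 35.1% of all genes higher and 32.8% lower. In MRL 4 rose and 3 fell, with a median of -0.05, beside 22.3% and 22.7% of all genes. The share that fell in BL6 and both shares in MRL were near those of all genes. Angptl4, a secreted inhibitor of lipoprotein lipase that fat cells make too, rose by 2.79 in BL6 and 2.18 in MRL, and held 40.0 and 31.2 CPM in the operated replicates 4. Acadm and Cpt1b, which act in fatty acid oxidation and its carnitine-dependent uptake, fell by 1.40 and 0.96 in BL6 and by 0.78 and 0.59 in MRL. In MRL, Acadm lost its call on leaving out any of 3 of the 8 samples (edgeR adjusted p = 0.0507 to 0.0606), and so did Angptl4 (0.0539 to 0.0612). Acadl fell by 0.70 in BL6, and its value in MRL was -0.23. Mlycd had -0.29 and -0.05 and was called in neither strain. The fall of Cpt1b in MRL had an edgeR adjusted p of 0.0458, and the call was lost on leaving out any of 6 of the 8 samples (0.0565 to 0.133). With replicate 4 of both operated groups left out, 5 targets were called lower in MRL.

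Genes most like Ucp3 over the 16 samples were Taf1d (Pearson r = 0.831, Spearman rho = 0.635), Nop58 (0.831 and 0.826), Ik (0.830 and 0.618), Gpatch4 (0.826 and 0.694) and Trdn (0.824 and 0.618). These values were lower than for Ucp1 and Ucp2. Trdn, the calcium store protein triadin, held 958.0, 1367, 598.5 and 450.3 CPM in operated BL6, with the lower values again in replicates 3 and 4.

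The count ratio of Ucp2 to Ucp3 compares the neighbouring genes within a sample and is free of library scaling. It was 0.0721 to 0.104 in unoperated BL6, and 0.206, 0.127, 0.851 and 1.95 in operated replicates 1 to 4. In MRL it was 0.576, 0.232, 0.130 and 0.178 in unoperated and 0.704, 0.336, 0.694 and 0.956 in operated replicates. On the log2 scale the means of BL6 were -3.48 ± 0.223 and -1.13 ± 1.82, and those of MRL -2.08 ± 0.925 and -0.668 ± 0.640 (SD, n = 4). The difference with surgery was 2.35 in BL6 and 1.42 in MRL, with two-sided exact permutation p of 0.0286 and 0.0571. Unoperated MRL exceeded unoperated BL6 by 1.39 (exact p = 0.0286), and operated MRL exceeded operated BL6 by 0.46 (exact p = 0.657). With 4 samples against 4 the exact test cannot go below 0.0286. Adjusted over the 4 comparisons by Benjamini-Hochberg, the exact p were 0.0571, 0.0762, 0.0571 and 0.657 in the order given, so none passed 0.05.

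Known regulators of uncoupling protein genes mostly fell. Of 20 listed, 19 were analysed, and 5 rose and 10 fell in BL6, while 3 rose and 10 fell in MRL, with list medians of -0.41 and -0.57. Over all genes, 35.1% were called higher and 32.8% lower in BL6, and 22.3% and 22.7% in MRL. Ppara, the nuclear receptor of fatty acid oxidation, fell by 2.38 and 1.52, from 9.98 ± 1.93 to 1.92 ± 0.675 CPM in BL6 and from 7.63 ± 3.34 to 2.61 ± 2.77 CPM in MRL (SD, n = 4). Its operated MRL value was 6.76 CPM in replicate 4. Ppard fell by 0.98 and 0.77, Rxra, the partner of the PPARs, by 1.17 and 0.99, and Rxrg by 0.85 and 0.78. Ppargc1b, a coactivator, fell by 1.42 and 0.98, the latter not called without operated MRL replicate 3 (edgeR adjusted p = 0.0541), while Ppargc1a had -0.60 and -0.93 and was called in neither. Pparg rose by 2.01 and 1.59, and Adrb3 had the largest rise of the list in both strains. The fall of Ppara in MRL had an edgeR adjusted p of 0.0265, and the call was lost on leaving out any of 5 of the 8 samples (0.0684 to 0.0824), whereas without operated replicate 4 the value was -2.64.

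Of 12 analysed genes that brown fat shares with muscle, 4 rose and 3 fell in BL6, and 2 rose and 1 fell in MRL. The shares in BL6 were near the 35.1% higher and 32.8% lower of all genes, and those in MRL were below the 22.3% and 22.7% of all genes. Cox7a1 and Cox8b, respiratory chain subunits of muscle and brown fat, rose by 0.91 and 0.94 in BL6. Within each operated group, however, both were lowest in replicate 4. Cox7a1 held 630.0 CPM there in BL6 and 535.1 CPM in MRL, and Cox8b 826.1 and 630.7 CPM. Cox7a1 rose by 0.75 in MRL, not called without operated replicate 1 (edgeR adjusted p = 0.0628), where Cox8b had 0.43 (adjusted p = 0.0807 in the edgeR fit). Acsl5, which activates fatty acids, rose by 1.37 and 0.84. Esrra fell by 0.40 in BL6, not called without unoperated replicate 3 (edgeR adjusted p = 0.0534), and had -0.30 in MRL, and Esrrg had -0.64 and -0.45 and was called in neither. With replicate 4 of both operated groups left out, 6 of these genes were called lower in MRL.

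Of 10 analysed mitochondrial carriers related to the uncoupling proteins, 4 rose and 1 fell in BL6, and 1 rose and 1 fell in MRL, beside the same shares of all genes. Slc25a1 and Slc25a34 were called in both strains, in opposite directions. Slc25a1, the citrate carrier that serves fatty acid synthesis, rose by 2.10 and 1.68, and by 1.28 in BL6 without operated replicate 4. It held 51.9 and 51.7 CPM in the operated replicates 4, 7.90 to 38.7 CPM in the other operated samples and 4.44 to 12 CPM in unoperated samples. Slc25a34 fell by 1.54 and 1.12. Slc25a10, the dicarboxylate carrier, rose by 0.90 in BL6 and had 0.75 in MRL. Its BL6 call was lost without operated replicate 4, at 0.41 (edgeR adjusted p = 0.199), and without unoperated replicate 2 (0.0581) or replicate 4 (0.0646). Slc25a30 rose by 0.46 in BL6, and that call was lost on leaving out any of 5 of the 8 samples (edgeR adjusted p = 0.0592 to 0.1) and in a fit of only the BL6 groups (0.0637). Slc25a27 and Slc25a14, also called UCP4 and UCP5, had values between -0.15 and 0.24 and were called in neither strain. Slc25a11 and Slc25a4, the ADP/ATP carrier of muscle, were not called either, at -0.33 and -0.35 in BL6. For comparison, 6 of 12 muscle fibre markers fell in BL6 and 4 in MRL, and none rose. Of 8 markers of blood vessel lining, 6 rose in BL6 and 7 in MRL, and none fell. Beside both of these lists stand the shares of all genes, 35.1% higher and 32.8% lower in BL6, and 22.3% and 22.7% in MRL.

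**Figure D5:**
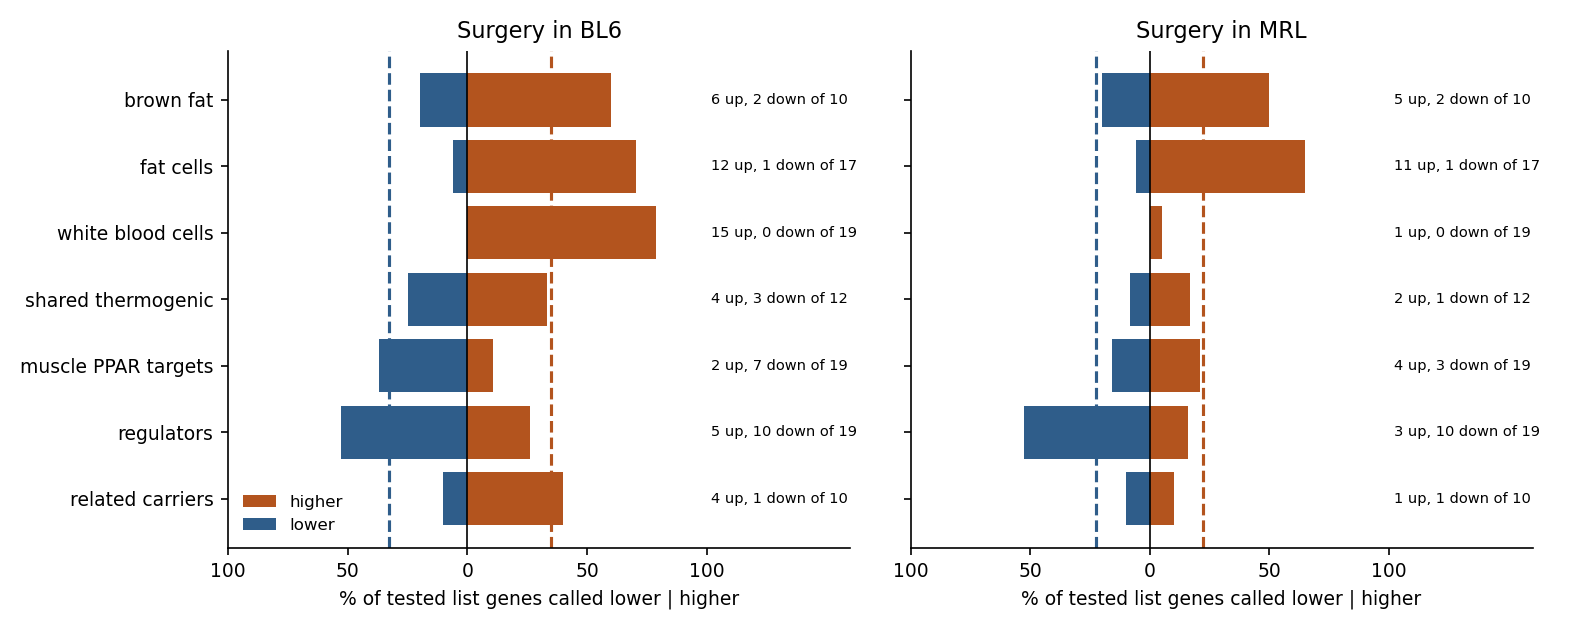
Share of the analysed genes of each list called higher (right) or lower (left) after surgery in BL6 and MRL, in percent, with counts printed beside the bars. Dashed lines mark the shares of all genes tested, 35.1% higher and 32.8% lower in BL6 and 22.3% and 22.7% in MRL; bars of brown fat and fat cell markers pass the line for higher genes in both strains, and regulators pass the line for lower genes.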

How the data were processed

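The authors deposited whole-number counts per gene, a reading of the values, with no normalization. Their second deposited table gives log2 fold changes and average log2 CPM, with p-values and false discovery rates, per the file headers. FastQC, STAR, edgeR and mm10 appear in the submitters' processing notes, with no version or role. The counting program, the use of strand and the rule that limited the table to 11710 genes are not given in the sources used here.

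From the counts, R 4.3.3 and edgeR 4.0.16 were used with TMM scaling and filterByExpr (minimum count 10), which removed 1 gene. The quasi-likelihood fit took all 16 samples, each group having its own mean, p-values were adjusted by Benjamini-Hochberg over 11709 genes, and genes were called at an adjusted p under 0.05. CPM uses TMM-scaled totals, and likeness uses log2 CPM with a prior count of 2. Floors of 3 counts use total counts without TMM and cover counting error only. Lengths and coordinates are from GENCODE M21, which held 11708 of 11710 gene IDs. The fit was tested on simulated data. No pair of replicates agreed within sampling noise. Exact permutation tests used scipy 1.17.1.

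Members and lists were chosen with earlier results of these data known. Named are the members, the 5 genes most like each, the first 6 analysed genes of each list and its largest called changes. Pck1, Prkar2b and Tbx1 were named after their values were seen. A gene that the rule names is not reported here. Alternatives were RLE or total-count scaling, no filter, DESeq2 1.42.0, limma voom 3.58.1, a replicate block, fits of 2 groups and left-out samples.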

Additional observations from a re-analysis of the deposited data

Results flagged for a closer look

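Within-group extremes were looked for in 52 groups of 4 values, with a gap to the nearest sample above 0.829 of the group's range, which chance alone gives in about 1 of 20 groups; 6 stood out. Of these, 2 are the Ucp1 values by which the gene was chosen, 41.1 CPM in replicate 4 of operated BL6 and 83.2 CPM in replicate 4 of operated MRL, so for them the chance rate does not apply and they are a description. In operated BL6, the same replicate 4 had the highest sum of brown fat markers, 212.8 CPM, the lowest sum of thermogenic genes shared with muscle, 1818.3 CPM, and the highest sum of white blood cell markers, 1039.7 CPM. Replicate 1 of unoperated MRL stood apart in white blood cell markers, at 729.8 CPM. No value of Ucp2, Ucp3 or their ratio stood apart by this rule.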

How the results depend on the processing

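Log2 changes are given. Over all alternatives, Ucp2 kept its direction in every comparison and its call for surgery in BL6. On leaving out single samples Ucp2 ranged from 0.95 to 1.73 for surgery in MRL and from 0.88 to 1.67 for strain in unoperated samples, and lost its call in some. Ucp3 was called in none and changed sign. It was -0.21 for surgery in BL6, 0.13 for the difference of effects and 0.031 for strain in operated samples with limma voom, 0.018 for strain in unoperated samples with total-count scaling, and 0.12 for surgery in MRL without both operated replicates 4. Leaving out single samples gave Ucp3 ranges of -0.20 to 0.65 for surgery in BL6, -0.21 to 0.12 for surgery in MRL, -0.70 to 0.15 for the difference of effects, -0.18 to 0.053 for strain in unoperated and -0.82 to 0.033 for strain in operated samples. The Ucp2 to Ucp3 ratio between operated strains ranged from -0.15 to 1.16, and no ratio test of reduced groups could pass the threshold after adjustment.

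Genes called for surgery in MRL ranged from 3490 (without operated MRL replicate 3) to 6145 on leaving out single samples. Genes called for the difference of effects were 29, and 14 with total counts, 250 with DESeq2, 58 without both operated replicates 4 and 1 to 69 without single samples. Strain calls in unoperated samples were 1216, against 2438 in a fit of only those groups and 2190 without both operated replicates 4. In operated samples they were 1507, against 574 in a fit of those groups. Total-count scaling moved the median of all genes for surgery in BL6 from 0.04 to 0.18, and gave 741 higher and 313 lower strain calls in unoperated samples against 588 and 628, and 994 and 383 in operated samples against 890 and 617.

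Without both operated replicates 4, fat cell markers called lower were 2 in each strain, white blood cell markers called higher were 7 in BL6, shared thermogenic genes called lower were 6 and PPAR targets called lower were 5 in MRL. White blood cell markers called higher in MRL were 0 with total counts. Without replicate 1 of unoperated MRL, a choice made after seeing the data, they were 7, and shared thermogenic genes called lower were 2.

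Of 1596 alternatives for 100 single-gene results, 1491 kept direction and call and 20 changed sign. In BL6 Slc25a14 was -0.0056 in a fit of only those groups and ranged from -0.052 to 0.10 without single samples. In MRL, Mlycd was 0.0090 with total counts, Adgre1, Itgam and Aif1 were 0.24, 0.30 and 1.29 with limma voom, and Slc25a30 was 0.049 without both operated replicates 4. Without single samples, MRL values ranged from -1.91 to 1.39 for Adgre1, -1.52 to 1.30 for Itgam, -1.54 to 2.67 for Aif1, -0.15 to 1.44 for Ptprc, -0.093 to 0.0045 for Mlycd, -0.012 to 0.20 for Slc25a27 and -0.21 to 0.050 for Slc25a30. The cause of these changes was not tested.

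The labels number replicates alike in each group without saying that numbers pair samples. Mean correlations of same-numbered deviations were -0.141 and 0.092 for surgery in BL6 and MRL, and 0.16 and 0.165 for strain in unoperated and operated samples, with some pairs below 0.1. Of 4 numbers, 0, 2, 2 and 1 matched best with their own. With a replicate block, Ucp2 was 2.12 and 1.28 for surgery in BL6 and MRL, Ucp3 0.05 and -0.14, and no member's call changed. The block gave 2 calls for the difference of effects, 2 fat cell markers called lower in BL6, and 0.25 for Aif1 in MRL.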
